A study of Mus musculus with 19 samples.

Results

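Binding of YAP and TEAD in mouse liver was examined at 10 genes of cell survival and the p53 pathway: Trp53 and Mdm2 of the p53 arm, Bbc3, Bcl2, Bcl2l1 and Mcl1 of the BCL2 family, Birc2, Birc3 and Xiap of the inhibitor of apoptosis (IAP) family, and Cflar of the death receptor pathway. The genes were fixed by name, with earlier results of these data known, as 10 of the 22380 protein-coding genes of the GENCODE annotation of the NCBIM37 (mm9) assembly. Every ChIP-seq peak that overlapped a gene body or the 20 kb on either side of it was taken. These windows spanned 799 kb in all, and they held 14 TEAD peaks in WT livers, 53 after 3 days of YAP induction (3 d) and 63 after 7 days (7 d). The corresponding numbers of YAP peaks were 0, 1 and 6. Peaks that overlapped one another across lists were joined into 69 sites, of 47225 sites in the whole series.

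The 19 ChIP-seq samples came from livers of C57BL/6 mice that carried ROSA26-rtTA-IRES-EGFP, a doxycycline-dependent transactivator, and that all ate doxycycline food. WT livers had no YAP transgene and were taken after 7 days of doxycycline. Induced livers also carried tetYAP, a doxycycline-responsive transgene for a constitutively active YAP point mutant, and were taken after 3 or 7 days. Each antibody and condition had 3 samples, except TEAD at 7 d with 4. According to the study's methods the mice for short-term induction were crossed to carry an albumin-promoter Cre recombinase, and the albumin promoter is active mainly in hepatocytes. The labelled tissue was liver, with no cell type given. Fewer cells with binding and less binding per cell therefore cannot be told apart. The TEAD antibody was raised against TEAD4 and is stated to recognise TEAD1 and TEAD3 as well. Mouse ages are not given in the sources used here.

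YAP is a transcriptional coactivator without a DNA-binding domain, which reaches chromatin through TEAD transcription factors that recognise a short motif with the core GGAATG. The p53 protein, encoded by Trp53, activates genes of cell-cycle arrest and apoptosis, and MDM2 is the ubiquitin ligase that degrades it and is itself induced by it. On the mitochondrial side, BCL-2, BCL-XL (encoded by Bcl2l1) and MCL-1 keep the outer membrane intact and are antagonised by BH3-only proteins such as PUMA (Bbc3), a p53 target. XIAP inhibits caspases directly, cIAP1 (Birc2) and cIAP2 (Birc3) are ubiquitin ligases of TNF receptor signalling, and c-FLIP (Cflar) blocks caspase-8 at death receptors. Hepatocytes are known to depend on MCL-1 and BCL-XL for survival, and Birc2 and Birc3 lie next to each other and near Yap1 on mouse chromosome 9.

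The replicates of each group were merged before peaks were called, so that each condition is 1 peak list and no spread between animals can be computed. Merged depth lay between 34260362 and 55032002 tags per list. The TEAD lists held 5695 (WT), 36446 (3 d) and 38984 (7 d) peaks in all, and the YAP lists 156, 110 and 1478. Values of a peak are given as its pileup, the count of extended fragments over its summit, as its rank by pileup within its own list (rank 1 is the highest), or as pileup per 1000000 tags. Ranks from lists of unlike length are not on the same scale. The interval beside a pileup or a ratio of pileups is an exact 95% interval that covers counting error only. TEAD pileups of WT livers are printed beside those of the induced lists but are not comparable with them, and no ratio to WT livers was formed. The caller extended fragments to 400 bp in the WT list and to 207 or 206 bp at 3 d and 7 d. Raw TEAD pileups at 3 d and 7 d also come from unlike depths, 55032002 and 38523843 tags. A change between 3 d and 7 d is therefore given by the ratio per 1000000 tags. No test between conditions could be made from the merged lists, and the numbers below describe these 6 lists.

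The reference sequence under 8 of these summits is printed for the loci on which the results turn: the YAP summits of 7 d that lie outside untranslated regions and, for Mdm2, Xiap, Trp53 and Bbc3, which had no YAP peak, the summit of the highest TEAD peak at 7 d. Each stretch is 121 bases of the mm9 plus strand centred on the summit, 5′ to 3′. Capitals mark the 5-letter core GGAAT or its reverse complement ATTCC, which run on to the full TEAD core GGAATG or CATTCC where the 6 letters match.
Bcl2 intron, YAP summit at 7 d (chr1:108526791-108526911): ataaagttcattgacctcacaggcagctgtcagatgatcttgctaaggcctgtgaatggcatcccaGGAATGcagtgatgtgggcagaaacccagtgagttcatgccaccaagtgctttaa
Bcl2l1 intron, YAP summit at 7 d (chr2:152618389-152618509): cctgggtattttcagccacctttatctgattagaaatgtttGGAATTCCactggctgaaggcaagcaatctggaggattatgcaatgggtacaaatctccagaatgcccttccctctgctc
Birc3 intron, YAP summit at 7 d (chr9:7852987-7853107): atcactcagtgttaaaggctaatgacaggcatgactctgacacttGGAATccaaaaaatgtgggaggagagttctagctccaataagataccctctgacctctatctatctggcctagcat
Bcl2 intron, weaker YAP summit at 7 d (chr1:108513612-108513732): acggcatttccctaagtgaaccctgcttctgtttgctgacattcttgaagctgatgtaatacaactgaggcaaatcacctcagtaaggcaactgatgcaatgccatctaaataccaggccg
Mdm2 upstream, TEAD summit at 7 d (chr10:117154879-117154999): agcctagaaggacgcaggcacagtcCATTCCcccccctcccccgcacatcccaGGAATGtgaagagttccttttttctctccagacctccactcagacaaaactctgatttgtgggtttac
Xiap intron, TEAD summit at 7 d (chrX:39448782-39448902): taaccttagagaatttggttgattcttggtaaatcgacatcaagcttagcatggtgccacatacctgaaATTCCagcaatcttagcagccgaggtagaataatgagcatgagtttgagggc
Trp53 intron, TEAD summit at 7 d (chr11:69394923-69395043): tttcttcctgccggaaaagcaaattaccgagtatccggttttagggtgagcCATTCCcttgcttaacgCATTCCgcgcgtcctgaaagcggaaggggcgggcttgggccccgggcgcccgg
Bbc3 upstream, TEAD summit at 7 d (chr7:16880867-16880987): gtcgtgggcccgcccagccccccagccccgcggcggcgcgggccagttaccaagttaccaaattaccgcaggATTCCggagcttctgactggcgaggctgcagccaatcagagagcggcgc

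The full core stood within 60 bases of the summit of the strongest YAP peak, in Bcl2, and in 2 copies each at the TEAD summits upstream of Mdm2 and in the first part of Trp53. The YAP summits in introns of Bcl2l1 and Birc3 and the TEAD summits in Xiap and upstream of Bbc3 held only the shorter core, which in Bcl2l1 was a palindrome read on both strands. The weaker Bcl2 summit held neither. Searched on both strands in 121-base windows, GGAATG was found at 23 of the 63 TEAD peaks at 7 d around the 10 genes (36.5%), against 29.9% of all TEAD peaks at 7 d and 57.0% of the 10% of that list with the highest pileup. In windows moved 1000 bp away, 6.45% of all these peaks had it. GGAAT, which every GGAATG contains, was found at 40 of the 63 peaks (63.5%), against 53.6% of all TEAD peaks at 7 d and 20.4% of moved windows. Of the 6 YAP peaks at 7 d, 2 held GGAATG (49.5% of all YAP peaks at 7 d did) and 5 held GGAAT (71.7% of all). The AP-1 site TGANTCA was found at 4 of the 63 TEAD peaks and at 5.71% of all TEAD peaks at 7 d, and the forkhead site TGTTTAC at 2 of the 63 and at 3.74% of all.

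In WT livers 8 of the 10 genes had a TEAD peak in the window, all except Xiap and Cflar, against 25.4% of all protein-coding genes. Birc2 and Birc3 entered this count through the same peak. The count was 5 of 10 when peaks needed a fold enrichment of at least 5, and also 5 of 10 with 5 kb in place of 20 kb on either side. At 3 d and at 7 d all 10 genes had one, against 65.2% and 66.5% of all protein-coding genes. YAP peaks were in the windows of 0 of the 10 genes in WT livers (0.139% of all protein-coding genes), of 1 gene at 3 d (0.192%) and of 5 genes at 7 d (6.33%). The gene with YAP at 3 d was Bcl2, and those with YAP at 7 d were Bcl2, Bcl2l1, Mcl1, Birc2 and Birc3, of which Birc2 and Birc3 shared 1 peak. When each TEAD list was cut to its 5695 strongest peaks, the length of the WT list, the windows held 16 TEAD peaks at 3 d and 18 at 7 d, beside 14 in WT livers. No YAP peak of any list was in the windows of Trp53, Mdm2, Bbc3, Xiap or Cflar.

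The windows of the 10 genes were somewhat longer than usual, with a median of 63.2 kb against 55.4 kb for all protein-coding genes, so peaks were also counted per length of window. TEAD peaks at 7 d reached 7.88 per 100 kb around the 10 genes, against 2.27 per 100 kb around all protein-coding genes. The corresponding densities were 6.63 and 2.16 at 3 d, and 1.75 and 0.332 in WT livers. YAP peaks at 7 d reached 0.751 per 100 kb, against 0.0791 per 100 kb around all protein-coding genes. With 10 chosen genes these densities describe the loci and were not tested.

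**Figure D1:**
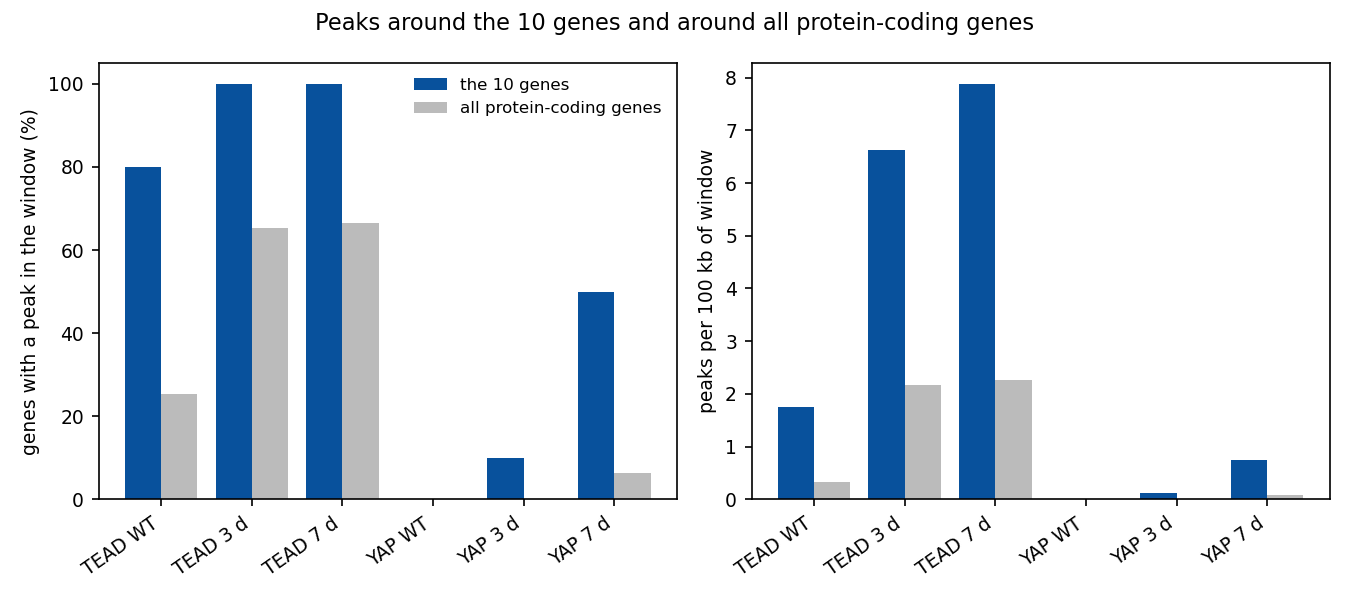
Left, percent of genes with a peak in the window (gene body with 20 kb on either side) for each of the 6 lists; right, peaks per 100 kb of window. Blue bars are the 10 genes and grey bars all 22380 protein-coding genes, each bar 1 value from 1 merged list without error; the blue bars are higher in every list but YAP in WT livers, where the 10 genes had no peak.

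At transcription starts, taken as 2000 bp upstream to 1000 bp downstream of any annotated start, 2 of the 10 genes (Trp53 and Bcl2l1) had a TEAD peak in WT livers, against 8.73% of all protein-coding genes. At 3 d and at 7 d the count was 8 of 10, against 38.8% and 37.6%, and Bcl2 and Birc3 were the genes without one in both lists. It was 6 of 10 in both lists with starts of protein-coding transcripts only, a setting not computed over all genes. Birc2 entered the count through a peak whose summit at 7 d lay 97 bp from a start of C330006D17Rik. Bcl2l1 was the only one of the 10 with a YAP peak at a start at 7 d, against 1.04% of all protein-coding genes, and this start belonged to a transcript not annotated as protein-coding. Of the 63 TEAD peaks at 7 d, 16 overlapped such an interval of one of the 10 genes and 47 did not. By annotation of the summit, which cuts across this division, 33 of the 63 were in introns, 23 were intergenic, 5 were in untranslated regions, 1 was in a coding exon and 1 in a non-coding exon. For 52 of the 63 the nearest start of a protein-coding gene was that of one of the 10 genes, and for the rest it was a neighbour's.

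**Figure D2:**
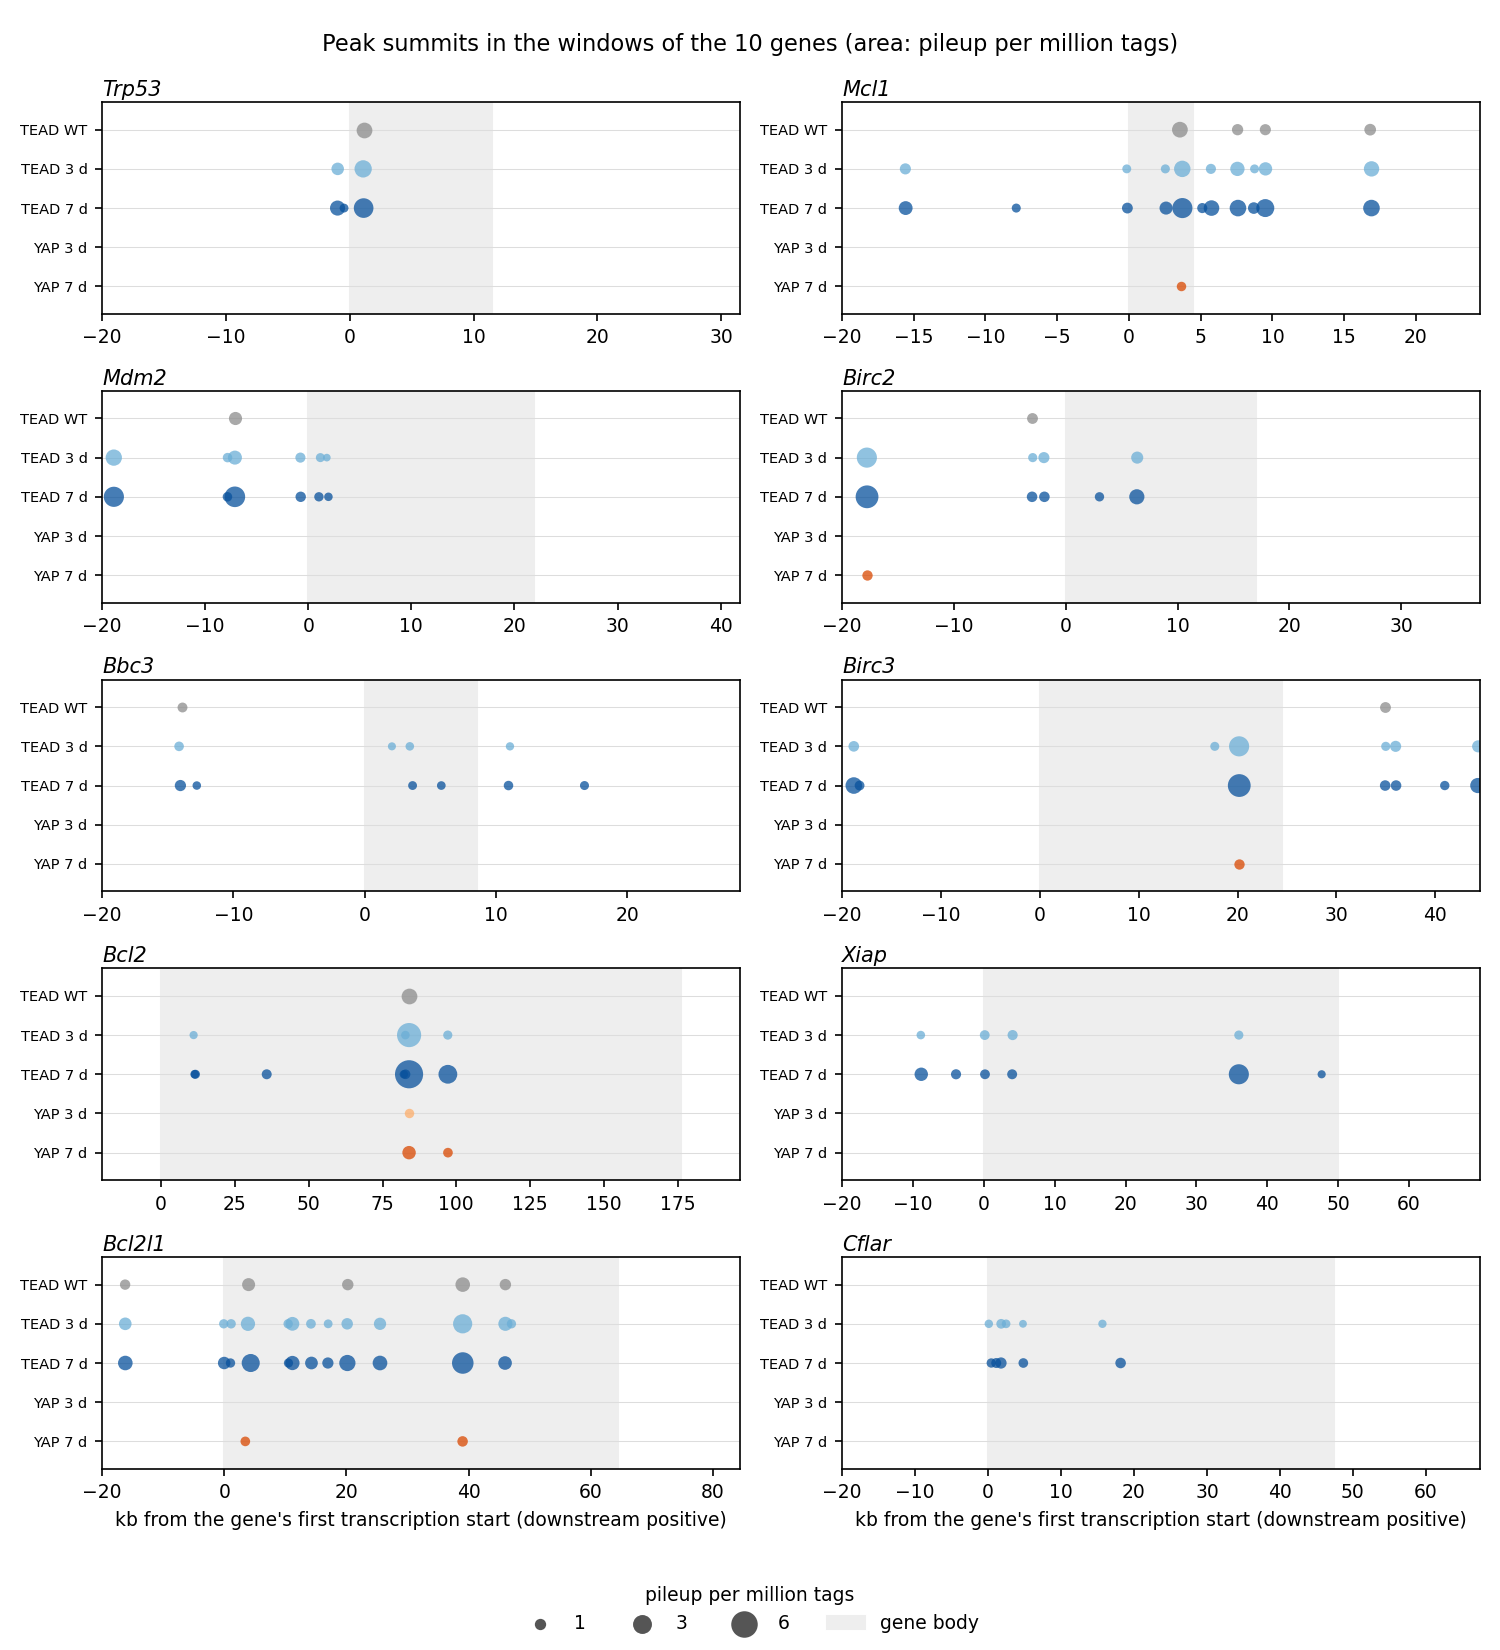
Peak summits around each of the 10 genes, plotted by distance in kb from the gene's first transcription start (downstream positive) and by list; the area of a point follows pileup per 1000000 tags, grey shading is the gene body, and the YAP list of WT livers is left out because it had no peak here. The largest points are in the Bcl2 intron, and YAP points are seen only at Bcl2, Bcl2l1, Mcl1, Birc2 and Birc3; areas of TEAD in WT livers are not comparable with the others because of the longer fragments.

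Of the 69 sites, all of which had a TEAD peak in at least 1 list, 14 were called in all 3 TEAD lists (20.3%, against 11.4% of all TEAD sites of the series). A further 32 sites were called at 3 d and 7 d but not in WT livers (46.4%, against 46.1% of all), 16 at 7 d only (23.2%, against 23.7%) and 7 at 3 d only (10.1%, against 18.2%). Of the 14 sites present from WT livers onwards, 5 were in the window of Bcl2l1, 4 in that of Mcl1, and 1 each at Trp53, Mdm2, Bbc3, Bcl2 and between Birc2 and Birc3. For some of these sites, at Bcl2l1, Mcl1, Bbc3 and Birc2, the nearest start was a neighbour's. Counted by peaks, 14 of the 63 TEAD peaks at 7 d overlapped a TEAD peak of WT livers (14.1% of all TEAD peaks at 7 d did), and 6 of the 63 overlapped a YAP peak at 7 d (3.58% of all). YAP was found at 4 of the 14 sites present in WT livers, where the share over all such sites was 13.9%, and at 2 of the 32 sites called at both 3 d and 7 d but not in WT livers, where it was 2.38%.

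In the p53 arm, TEAD was bound at both genes in all 3 lists and YAP in none. Trp53 had 1 TEAD peak in WT livers and 2 (3 d) and 3 (7 d) in induced livers. Its highest peak lay in an intron 1076 bp downstream of the nearest Trp53 start, with a pileup of 72 in WT livers (rank 473), 137 at 3 d (rank 891) and 125 at 7 d (rank 1646, interval 104 to 149). These ranks lay inside the top 8.31%, 2.44% and 4.22% of their lists. Corrected for depth, the ratio of this peak, 7 d over 3 d, was 1.30 (interval 1.01 to 1.67). A second peak at 3 d and 7 d lay 984 bp upstream of Trp53 and 51 bp from a start of Wrap53, the gene that runs in the opposite direction from the same region, with a pileup of 72 at 7 d (rank 5523). Position alone does not assign this peak to either gene.

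Mdm2 had 1 TEAD peak in WT livers and 6 in each induced list. The peak shared by all 3 lists lay 7125 bp upstream of the gene, with a pileup of 49 in WT livers (rank 1493), 88 at 3 d (rank 2772) and 138 at 7 d (rank 1231, interval 116 to 163). Per 1000000 tags its pileup at 7 d was 2.24 times that at 3 d (interval 1.70 to 2.96), which was above the ratio of 92.9% of all sites. A second strong site 18863 bp upstream had a pileup of 121 at 3 d and 132 at 7 d (ranks 1268 and 1397) and no peak in WT livers. The depth-corrected ratio of this second site was 1.56 (interval 1.21 to 2.01). The start nearest to it was that of Slc35e3 rather than Mdm2. Around the Mdm2 starts themselves TEAD pileups at 7 d were low, between 20 and 32.

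Among the BCL2 family genes listed here the highest TEAD peaks were at the prosurvival genes, and Bbc3, the only BH3-only gene listed, ranked below them. Other genes of the family were mixed. Of these, Bnip3l had the highest TEAD peak at 7 d, with rank 1571, and Bnip3 had rank 4009. Best TEAD ranks at 7 d were 4224 for the proapoptotic Bax and 4425 for the BH3-only Bcl2l11. They were 2463 for the prosurvival Bcl2l2 and 21333 for the prosurvival Bcl2a1b. Bbc3 had 1 TEAD peak in WT livers and 4 (3 d) and 6 (7 d) in induced livers, of which none exceeded a pileup of 38. Its highest TEAD peak at 7 d, 14038 bp upstream and nearer to a start of Ccdc9, had a pileup of 38 (interval 26.9 to 52.2) and rank 15772 of 38984, inside the top 40.5% of the list. In WT livers the peak at the same place was among the weakest of that list, with a pileup of 26 and rank 5646 of 5695.

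The window of Bcl2, at 216 kb, was the longest of the 10 genes, and peak heights were not adjusted for window length. Bcl2 carried the highest TEAD and YAP peaks of all 10 genes in the induced lists, inside an intron 83998 bp downstream of its start. In WT livers its TEAD peak tied with those of Trp53 and Mcl1 at a pileup of 72. TEAD pileup at this site was 72 in WT livers (rank 473), 273 at 3 d (rank 47, interval 242 to 307) and 261 at 7 d (rank 74, interval 230.3 to 295), where the caller's fold enrichment was 61.5. It was also the only site of the 10 genes with YAP peaks at both 3 d and 7 d. YAP pileup there was 24 at 3 d (rank 98 of 110) and 50 at 7 d (rank 84 of 1478, interval 37.1 to 65.9), and no YAP peak was called in WT livers. Per 1000000 tags the YAP pileup was 2.20 times as high at 7 d as at 3 d (interval 1.33 to 3.75), while the median over the 48 sites with YAP peaks in both lists was 1.01. Over the same interval the TEAD ratio at this site was 1.37 (interval 1.15 to 1.62), close to the median of all TEAD sites of 1.34. The presence pattern of Bcl2, with TEAD in all 3 lists and YAP at 3 d and 7 d but not in WT livers, was that of 12 protein-coding genes (0.0536%).

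A second site in the same Bcl2 intron, 97152 bp downstream of the start, had its TEAD peak mainly at 7 d. It had no TEAD peak in WT livers, a TEAD pileup of 34 at 3 d (rank 19394, interval 23.5 to 47.5) and of 114 at 7 d (rank 2101, interval 94.0 to 137). Its TEAD ratio was 4.79 (interval 3.24 to 7.25), above 99.6% of all sites, and a weak YAP peak with a pileup of 24 (rank 1149) was called there at 7 d. The other Bcl2 sites, all intronic, had TEAD pileups of 19 to 29 at 7 d or a peak at 3 d only.

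Bcl2l1, with a window of 104 kb, had the most TEAD peaks of the 10 genes. There were 5 in WT livers and 13 (3 d) and 12 (7 d) in induced livers. Of the sites with a peak in WT livers, 1 lay 16206 bp upstream and 30 bp from a start of Tpx2 at 7 d. For another, 42773 bp from the nearest Bcl2l1 start, the nearest start was that of Cox4i2. Position alone does not assign these peaks to Bcl2l1. The highest peak of the window, in an intron 35851 bp from the nearest Bcl2l1 start, had a TEAD pileup of 61 in WT livers (rank 793), 170 at 3 d (rank 438) and 151 at 7 d (rank 934, interval 128 to 177). Its YAP pileup was 29 at 7 d (rank 664). Corrected for depth, the TEAD ratio there, 7 d over 3 d, was 1.27 (interval 1.01 to 1.59). The second YAP peak, with a pileup of 24 (rank 1149), had its summit 248 bp from an alternative start and in an untranslated region, beside a TEAD peak with a pileup of 105 at 7 d (rank 2573). The TEAD ratios of the 12 Bcl2l1 sites shared by 3 d and 7 d ran from 0.93 to 2.11, around the median of all sites.

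Mcl1, the shortest of the 10 genes, had 4 TEAD peaks in WT livers and 9 (3 d) and 11 (7 d) in induced livers within a window of 44.5 kb. The strongest site covered the untranslated 3′ end of the gene, 3727 bp downstream of the start, with a TEAD pileup of 72 in WT livers (rank 473), 123 at 3 d (rank 1208) and 131 at 7 d (rank 1431, interval 110 to 155). Its depth-corrected TEAD ratio, 7 d over 3 d, was 1.52 (interval 1.18 to 1.96). YAP pileup there at 7 d was 23 (rank 1249 of 1478, interval 14.6 to 34.5), the lowest pileup of the 10 genes in that list. TEAD ratios of at least 2 were found at 2 other Mcl1 sites, 2.29 at 2589 bp and 2.56 at 5757 bp downstream of the start. For the sites 9507 bp and 16908 bp downstream, called in all 3 TEAD lists, the nearest start was that of Adamtsl4.

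**Figure D3:**
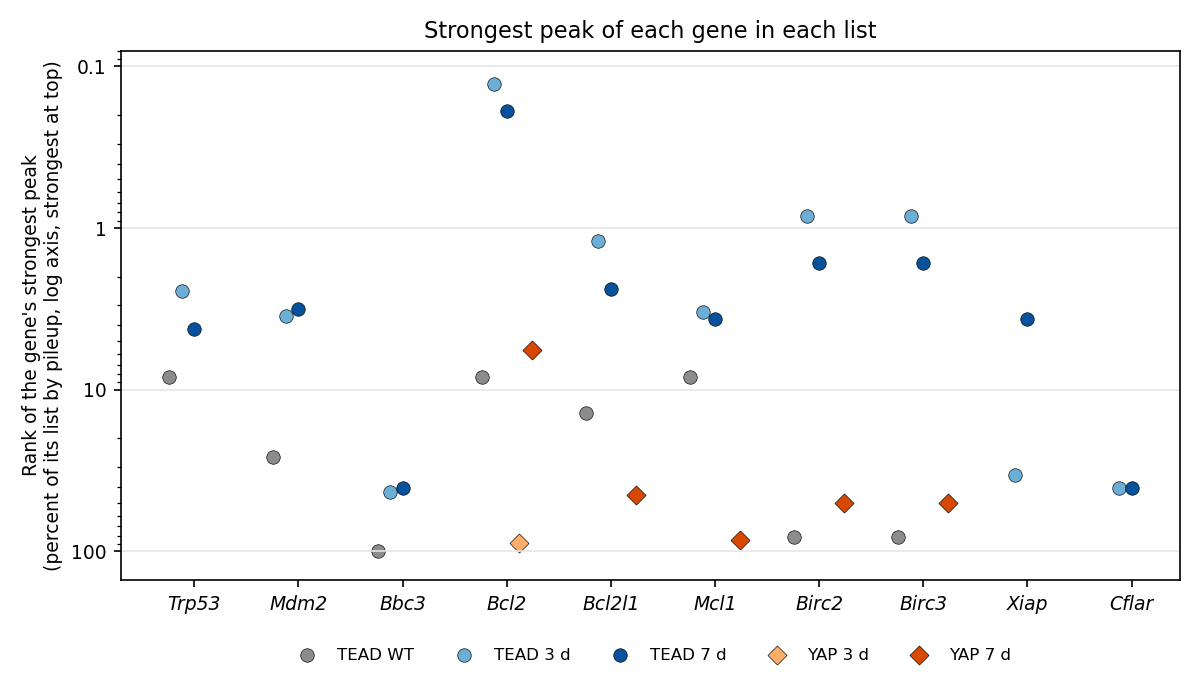
Rank of the strongest peak of each gene in each list, as percent of that list by pileup on a log axis with the strongest at the top; circles are TEAD, diamonds YAP, and a missing point means no peak in the window. Bcl2 stands highest in both induced TEAD lists (0.129% at 3 d and 0.190% at 7 d) and in YAP at 7 d (5.68%), and Bbc3 and Cflar are at 40.5% in TEAD at 7 d.

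Among the IAP genes, Birc2 and Birc3 lie so close that 5 sites fell in both windows. The strongest of these was in an intron of Birc3, 7308 bp from an alternative Birc3 start and 17763 bp upstream of Birc2, with a TEAD pileup of 188 at 3 d (rank 306, interval 162 to 217) and 170 at 7 d (rank 643, interval 145 to 198). Corrected for depth, the TEAD ratio of this site, 7 d over 3 d, was 1.29 (interval 1.04 to 1.60). No TEAD peak was called there in WT livers. It had a YAP peak at 7 d with a pileup of 28 (rank 742, interval 18.6 to 40.5). The TEAD peak of WT livers lay elsewhere, 3031 bp upstream of Birc2 and 1222 bp from the start of C330006D17Rik, the nearest one, with rank 4602 of 5695. At this site TEAD ranked 19394 at 3 d and 19452 at 7 d. A site 18808 bp upstream of Birc3 had a TEAD pileup of 48 at 3 d and 88 at 7 d and a ratio of 2.62 (interval 1.82 to 3.80).

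Xiap had no TEAD peak in WT livers, but 4 in the 3 d list and 6 in the 7 d list, and no YAP peak in any list. The site with the highest TEAD ratio of the 10 genes was in an intron of Xiap, 1937 bp from an alternative start and 35986 bp from the first. TEAD pileup there was 34 at 3 d (rank 19394, interval 23.5 to 47.5) and 131 at 7 d (rank 1431, interval 110 to 155). The ratio per 1000000 tags was 5.50 (interval 3.75 to 8.28), above 99.8% of all sites with TEAD peaks at 3 d and 7 d. A further Xiap site 8821 bp upstream of the gene had a ratio of 2.76 (interval 1.73 to 4.48). At the first Xiap start the TEAD pileup was 40 at 3 d and 28 at 7 d, a ratio of 1.00 (interval 0.59 to 1.66), so the higher values at 7 d were not shared by every site of the gene.

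Cflar had no TEAD peak in WT livers, 5 in each induced list, and no YAP peak. Its highest TEAD peak lay at an alternative start, with a pileup of 39 at 3 d (rank 14757) and 38 at 7 d (rank 15772, interval 26.9 to 52.2). For this Cflar peak the depth-corrected ratio, 7 d over 3 d, was 1.39 (interval 0.87 to 2.23). Of its 8 sites, 3 were called at 3 d only, 3 at 7 d only and 2 in both lists. Together with Bbc3 it was the most weakly bound of the 10 genes.

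Across genes, 46 sites had TEAD peaks at both 3 d and 7 d and could be compared between these lists, whose fragment lengths differed by 1 bp. The median ratio of pileup per 1000000 tags, 7 d over 3 d, was 1.41 at these sites and 1.34 at all 27099 such sites of the series, with quartiles of 1.11 and 1.63. A ratio of at least 2 was found at 8 of the 46 sites, against 10.9% of all such sites, and 3 of the 46 reached 2 times the median ratio of the series, against 3.77% of all. The 8 were spread over Xiap and Mcl1 with 2 each, and Bcl2, Birc3, Mdm2 and Bcl2l1 with 1 each. The counting interval was above 1 at 25 of the 46 sites (32.7% of all such sites) and below 1 at 0 (0.443% of all). The interval was above the median of all sites at 9 of the 46 (12% of all) and below it at 1 (4.46% of all), the Bcl2l1 site 42773 bp from its nearest start with a ratio of 0.93. Intervals are narrower at higher pileup, on which sites were not matched. Sites with a TEAD peak in WT livers had a median ratio of 1.38 (14 sites) and those without one 1.48 (32 sites), where the medians over the series were 1.36 and 1.33.

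**Figure D4:**
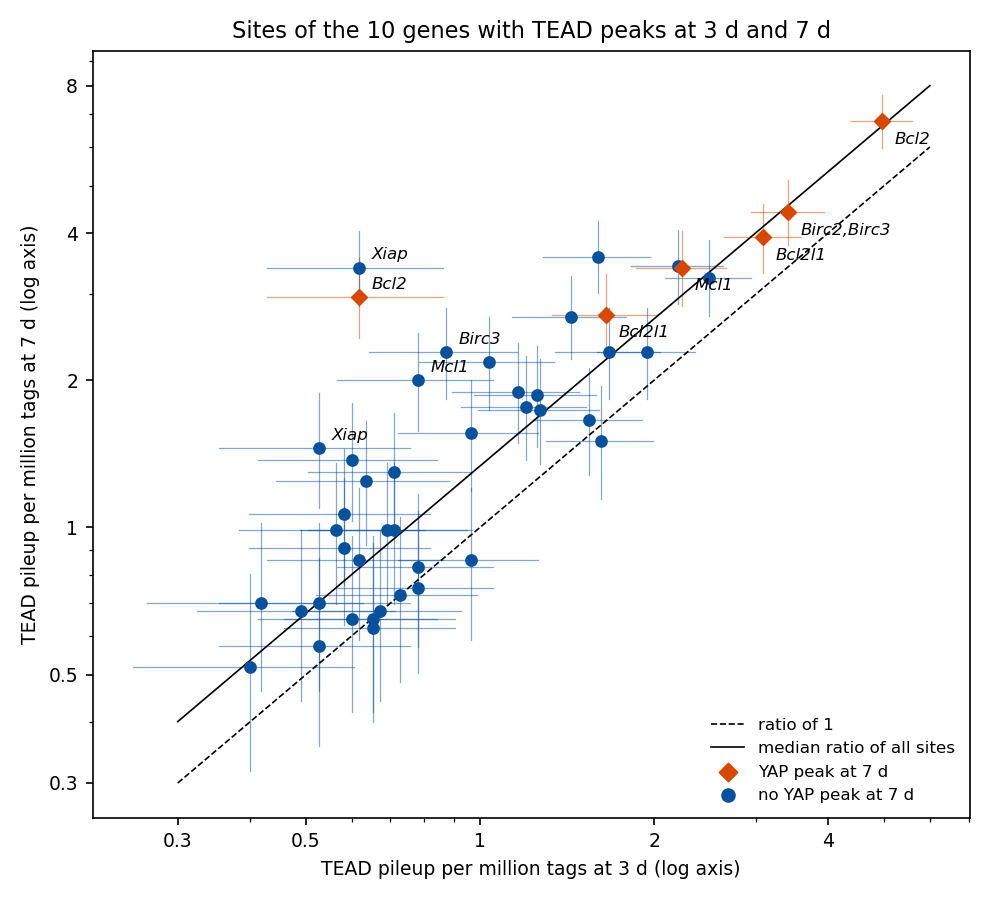
TEAD pileup per 1000000 tags at 3 d (x, log axis) and 7 d (y, log axis) for the 46 sites of the 10 genes with a peak in both lists; lines through points are exact 95% Poisson intervals (counting error only), orange diamonds have a YAP peak at 7 d, and gene names are given for sites with YAP or with a ratio of at least 2.5. The Xiap site (5.50) and a Bcl2 site (4.79) lie far above the solid line, the median ratio of all sites (1.34), while the other 5 sites with YAP have ratios of 1.27 to 1.65.

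Other genes of the same pathways were taken from lists of p53 targets, p53 regulators, further BCL2 family members, further IAP genes with their antagonists, death receptor genes, and caspases with the apoptosome. YAP peaks at 7 d were in the windows of 0 of 27 p53 targets, 1 of 14 p53 regulators, 0 of 17 other BCL2 family genes, 2 of 9 other IAP genes and antagonists, 2 of 14 death receptor genes and 0 of 7 caspase and apoptosome genes, against 6.33% of all protein-coding genes. No gene of these lists had a YAP peak in WT livers or at 3 d. The IAP antagonists were Htra2, a mitochondrial protease, with a peak at its start of rank 53, and Diablo, which encodes SMAC, with rank 470. In the death receptor list they were Tnfaip3, the ubiquitin-editing enzyme A20 that restrains NF-κB signalling, with a peak at its start of rank 136, and Ripk1, a kinase of TNF receptor complexes, with rank 1041. The p53 regulator was the checkpoint kinase gene Atr, with rank 921. TEAD peaks at 7 d were in the windows of 24 of the 27 p53 targets, 14 of the 14 p53 regulators, 13 of the 17 BCL2 family genes, 6 of the 9 IAP genes and antagonists, 11 of the 14 death receptor genes and 7 of the 7 caspase and apoptosome genes, against 66.5% of all protein-coding genes. In WT livers these counts were 6, 3, 3, 4, 2 and 1, against 25.4%.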

How the data were processed

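Per the labels and the study's methods, the authors masked low-quality bases, aligned reads to mm9 with BWA 0.6.2, processed them with SAMtools, merged the replicates of a group, removed duplicates and called peaks with MACS 2.0.9. Per the file headers, the p-value cutoff was 1e-05, the tag size 51 bp, and 1 control library of 167176362 tags, from earlier published data according to the methods, served all 6 lists. Extended fragments measured 250 bp in the YAP lists and 400 (WT), 207 (3 d) and 206 bp (7 d) in the TEAD lists. The deposited pileup is a signal that counts extended fragments over a summit. The deposited fold enrichment is the ratio of pileup to local background. The deposited −log10 p-value is the caller's and was used only to rank or filter peaks; the −log10 q-value was not used.

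The 10 genes and the pathway lists were chosen with earlier results of these data known. Windows, transcription starts and features came from GENCODE for NCBIM37, and all peak ends on named chromosomes lay within that assembly. Of 38984 TEAD peaks at 7 d, 38953 were on chromosome names of the reference, and the rest entered no motif count. For YAP these numbers were 91 of 110 peaks at 3 d and 1456 of 1478 at 7 d. Sites and ratios over the series, with the 48 sites that had YAP peaks in both lists, were not filtered by chromosome name. An overlap of 1 bp made peaks shared. Pileup was divided by the tags of the header, in units of 1000000, with exact 95% Poisson intervals, and ratios with exact binomial ones. These cover counting error only. Genes named were the 10, the genes with the start nearest to their leading peaks, and from each pathway list up to 3 genes with the best YAP rank at 7 d. Neighbouring genes whose start was nearest to other peaks named here were added after the values were seen, as were the other BCL2 family genes set beside Bbc3. Of the summits due to be shown, 3 touched untranslated regions (Bcl2l1, Mcl1 and Cflar) and were not printed. Both cores and the AP-1 and forkhead sites were searched in 121-base windows, the 5-letter core being added after the sequences were seen. Overlap and ratio steps were tested on simulated data (Python 3.11.15, pandas 2.3.3, SciPy 1.17.1). No test between groups was made, since merged lists hold no replicate error.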

Additional observations from a re-analysis of the deposited data

How the results depend on the processing

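With 1 merged list per group, no library could be left out. No paired analysis was possible because the deposited lists carry no replicate numbers, each being a merge of its group. Of 89 recomputed values, 77 stayed within 1.5 times the main value. Some of these could not move, such as the absence of YAP peaks in WT livers under stricter settings and the WT TEAD list cut to its own length. Keeping only peaks with a fold enrichment of at least 5 gave 7 TEAD peaks around 5 genes in WT livers, and 0 YAP peaks around 0 genes at 3 d, where the Bcl2 peak falls below that fold. Keeping the 5695 strongest peaks of each TEAD list left 16 peaks at 3 d and 18 at 7 d, beside 14 in WT livers. This setting gives every TEAD list the same total by construction, so it cannot show a gain across the series. Windows with 5 kb on either side gave 5 genes with a TEAD peak in WT livers, and windows with 50 kb gave 81 TEAD peaks at 3 d, while YAP peaks at 7 d stayed at 6 under both. With starts of protein-coding transcripts only, 1 gene had a TEAD peak at a start in WT livers and 0 had a YAP peak at 7 d. With ratios divided by the median of all sites, an alternative chosen after seeing the data, 3 sites in place of 8 reached 2-fold. Ranks of single genes stayed within 1.5 times in 19 of 20 cases, in which Birc2 and Birc3 counted separately for the same peak. The exception was Bcl2, whose strongest TEAD peak at 7 d moved from 0.190% to 0.103% of the list when ranked by fold enrichment.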
